A study of Homo sapiens with 8 samples.

Results

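The human zinc finger cluster at the distal end of chromosome 19 was followed through 3 comparisons of total RNA in the leukaemia line K-562, an established human cell line. It was taken as 47 zinc finger genes, named by symbol, that lie beyond about 57 Mb on GRCh38. All 47 were found in GENCODE 29, between positions 57191500 and 58481230 of chromosome 19, and each is protein-coding. Of the 47, 20 were listed in at least 1 of the authors' deposited tables, which together listed 1221 genes. The groups were TASOR knockout cells, TASOR knockout cells expressing a FLAG-TASOR transgene, wild-type cells expressing a FLAG-TASOR2 transgene, and wild-type controls that had received a negative guide RNA. Each group had 2 libraries, called biological replicates in the series design. Per the labels' protocols, cells carrying guide plasmids were sorted and grown as single colonies, and lentivirus then delivered an empty puromycin vector or a transgene. The sources used here do not say whether the 2 libraries of a group are different clones. No guide is named in the labels of the FLAG-TASOR2 libraries. A difference of clone or guide treatment therefore cannot be told apart from that of genotype or transgene. The p-values rest on the spread between these libraries, not on that of further clones.

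Most genes of the cluster encode proteins with a tandem array of cysteine-histidine zinc fingers, often behind a KRAB domain, a repressor domain that recruits the cofactor TRIM28 and, through it, the H3K9 methyltransferase SETDB1. Such proteins are best known for silencing retrotransposons. The genes themselves arose by tandem duplication, and many on chromosome 19 carry H3K9 methylation over their finger exons. TASOR belongs to HUSH, the human silencing hub, which acts with SETDB1 and the ATPase MORC2 on H3K9-methylated loci, and TASOR2 is its paralog.

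Many promoters of the cluster share short strings near the start, which is why a set of them is shown before the values. RefSeq promoter windows on GRCh38.p14, from 250 bases before to 50 after the annotated start, were matched by symbol for 44 of the 47 members. The letters CCGGAAG, a core bound by ETS family activators, were searched on both strands and occurred in 28 of the 44 members (63.6%). The share was 42.9% among 219 other zinc finger genes of chromosome 19 and 12.2% among all 27305 genes with a window, the cluster included. In the 10 members with this core that were listed as higher in the TASOR knockout, its first base on the gene's strand lay between 26 bases before and 4 bases after the start, and in each it read against the gene. This was not limited to listed members: the core was in 16 of the 26 members listed in no table (61.5%), and 24 of its 32 matches over the cluster read against the gene. The windows below are written on the strand opposite to the gene, 5′ to 3′, with the core in capitals.
ZNF419: caaacgagacgCCGGAAGtcccgcccatt
ZNF549: ccggaaagacgCCGGAAGattctggcgta
ZNF550: cgccagcgaggCCGGAAGtcccgcccctg
ZNF416: tcggagcggtgCCGGAAGtcccgccttac
ZIK1: ctgaagtgataCCGGAAGtccctccccga
ZNF530: cagggaggacgCCGGAAGttccgctccga
ZNF134: cgaggaagataCCGGAAGtcccgcccaga
ZNF551: cgaggaggacgCCGGAAGttccggcccgt
ZNF671: acaaggaggagCCGGAAGtcccgcccacg
ZNF776: agtagaggacgCCGGAAGtcccaccttta
On GRCh38.p14 the windows of plus-strand genes lie at chr19:57487722-57487750 (ZNF419), chr19:57527319-57527347 (ZNF549), chr19:57584118-57584146 (ZIK1), chr19:57599878-57599906 (ZNF530), chr19:57614214-57614242 (ZNF134), chr19:57681970-57681998 (ZNF551) and chr19:57746786-57746814 (ZNF776). Those of minus-strand genes lie at chr19:57559842-57559870 (ZNF550), chr19:57578890-57578918 (ZNF416) and chr19:57727623-57727651 (ZNF671). The likeness ran past the core. The longer string CCGGAAGTCCC, the core with the bases that most often follow it in the cluster, was chosen after the windows had been read and contains the core. It occurred in 13 of the 44 members, in 1 of the 510 other zinc finger genes and in 74 of all 27305 genes. It was not limited to listed members, since 6 of the 26 members listed in no table held it too, against 7 of the 18 listed in at least 1. Members listed in no table that hold it on the strand opposite to the gene include ZNF773, next to ZNF419, and ZNF547, farther towards the centromere, both plus-strand genes, at chr19:57499858-57499886 and chr19:57363413-57363441.
ZNF773: gaggggagacgCCGGAAGtcccgcccatt
ZNF547: gcaagaggacgCCGGAAGtcccgccctcc

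A second string was shared upstream of the start. ACTACATTACC, the letters ACTACA with the bases that most often follow them in the cluster, was also chosen after reading the promoters and was searched on both strands. It occurred in 12 of the 44 members, in 1 of the 510 other zinc finger genes and in 18 of all 27305 genes (0.0659%). Of the members listed in the TASOR knockout 6 of 13 held it, as did 6 of the 26 members that no table lists. It was present in members without the ETS core, such as ZNF772 and ZNF418. The upstream 250 bases of these 2 members and of ZNF416 are given on the strand of the gene, with this string and CCAAT boxes in capitals. ZNF772 lies at chr19:57477567-57477816, ZNF416 at chr19:57578912-57579161 and ZNF418 at chr19:57935403-57935652, all on the minus strand of GRCh38.p14 and from RefSeq.
ZNF772: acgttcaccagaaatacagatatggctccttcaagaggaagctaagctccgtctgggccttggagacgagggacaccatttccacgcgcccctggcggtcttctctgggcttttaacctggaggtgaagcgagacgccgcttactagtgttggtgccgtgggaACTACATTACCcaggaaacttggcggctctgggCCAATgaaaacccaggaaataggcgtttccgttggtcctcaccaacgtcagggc
ZNF416: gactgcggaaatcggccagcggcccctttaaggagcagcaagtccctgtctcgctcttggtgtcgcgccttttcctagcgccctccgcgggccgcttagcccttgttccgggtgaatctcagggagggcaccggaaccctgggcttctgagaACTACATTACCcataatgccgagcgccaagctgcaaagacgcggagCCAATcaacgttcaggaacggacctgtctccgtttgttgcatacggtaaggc
ZNF418: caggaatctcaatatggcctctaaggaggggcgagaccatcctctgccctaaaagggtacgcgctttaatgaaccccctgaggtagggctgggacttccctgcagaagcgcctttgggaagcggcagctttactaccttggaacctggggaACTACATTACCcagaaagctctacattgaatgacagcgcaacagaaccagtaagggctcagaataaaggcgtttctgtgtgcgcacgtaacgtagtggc
CCAAT boxes were present in 31 of the 44 members (70.5%), against 51.6% of the 219 other zinc finger genes of chromosome 19 and 39.7% of all genes. The TATAAA box was found in 2 of the 44 members (4.55%), in 3.65% of the other zinc finger genes of chromosome 19 and in 14.0% of all genes. The median window held 20.5 CpG dinucleotides in the cluster, 20 in the other zinc finger genes of chromosome 19, 22 in all 510 other zinc finger genes and 14 over all genes. The TATAAA share and the CpG count thus lay near those of zinc finger genes elsewhere. These matches describe the letters of the windows and do not show binding.

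For each listed gene the tables hold the log2 fold change, the mean expression as log2 of the depth-scaled read count (CPM), and the F score of a test with its p, unadjusted and adjusted. In all 3 tables the log2 mean expression was above 1, the log2 fold change beyond 1 in either direction and the unadjusted p under 0.05, and these values are taken here as the listing limits. They hold no value per library, so the depth and the spread between the 2 libraries of a group cannot be shown. A member that is not listed has no value here, which does not place it at its control level. Levels per group, called derived below, were calculated from the deposited mean and fold change on the assumption of equal weight for the 2 groups. For the members, the control level derived from the knockout table and that from the FLAG-TASOR2 table differed by at most 0.36 on the log2 scale. Fewer expressing cells and less RNA per cell cannot be told apart in such bulk samples. As a check of the labels, the authors' deposited tables put TASOR at -1.08 (SE about 0.23, log2 scale) in the knockout and TASOR2 at 2.26 (SE about 0.27) in the FLAG-TASOR2 cells. In knockout cells with FLAG-TASOR, TASOR was not listed and has no value, so that label has no such check. No member had an adjusted p below 0.05 in any table (0 members of the deposited edgeR-type F-test, against 15, 2 and 17 at an unadjusted p below 0.05 in the knockout, FLAG-TASOR and FLAG-TASOR2 tables). Over all genes tested, an adjusted p below 0.05 was reached by 0.00715% in the knockout, 0% with FLAG-TASOR and 0.0357% with FLAG-TASOR2, so members are called listed as higher, not raised.

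The first comparison asked which genes differed when TASOR was lost. In TASOR knockout cells 15 of the 47 members were listed as higher than in controls and 0 as lower. Of all 13992 genes tested, 1.92% were listed and 0.979% were listed as higher. Among the 268 listed genes 51.1% were higher, and the 15 members made up 10.9% of these higher genes. How many of the 47 were tested is not known, so the share of 31.9% is over annotated members. The median log2 fold change of the listed members was 1.85 in the authors' deposited table, close to the 1.91 of all genes listed as higher. An unadjusted p below 0.01 was reached by 8 of the 15, against 93 of all 268 listed genes (0.665% of all genes tested). The listed members lay in 1 stretch of 469 kb, from ZNF772 to ZNF418 (57466663 to 57935393), in which 15 of 22 members were listed. None of the 9 members nearer the centromere was listed, and none of the 16 beyond ZNF418 (0 members of either side in this edgeR-type table). The interval was read off the values and is a description.

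**Figure D1:**
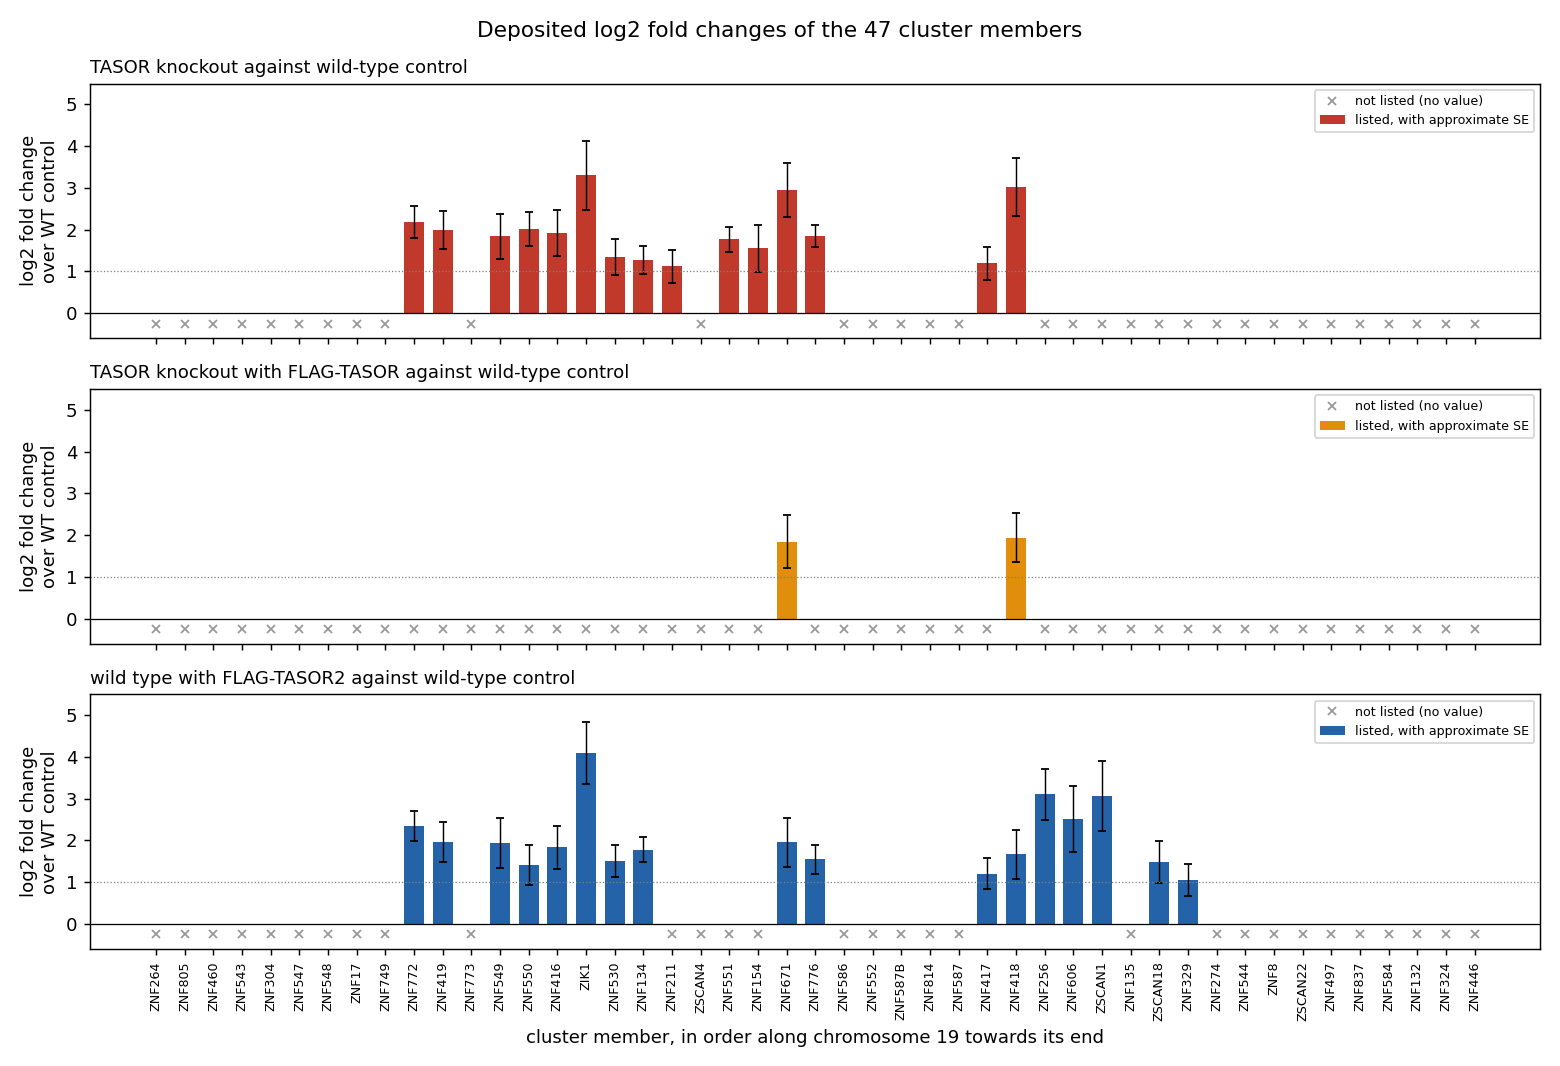
Deposited log2 fold changes over wild-type control (bars, with approximate SE) for the 47 members in order along chromosome 19, with the TASOR knockout on top, the knockout with FLAG-TASOR in the middle and FLAG-TASOR2 below; crosses mark members not listed, which have no value, and the dotted line is the listing limit of 1. The 15, 2 and 17 listed members are all above 0, and none lies among the first 9 or the last 10 members.

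Within that stretch, ZNF776 had the smallest p of the 15 listed members in the knockout table and ranked 10 of 268 there. It stood at a derived level of 43.1 CPM in TASOR knockout cells and 11.9 CPM in controls. The authors' deposited table put its log2 fold change at 1.85 (p 0.000737 and adjusted p 0.839, SE about 0.27, log2 mean expression 4.78). ZNF551 was the most abundant listed member, at 54.9 CPM in knockout cells and 16.1 CPM in controls. The authors' deposited table put its log2 fold change at 1.77 (p 0.00161 and adjusted p 0.937, SE about 0.30, log2 mean expression 5.15). ZNF772, the first listed gene of the stretch, stood at 24.7 CPM in knockout cells and 5.404 CPM in controls. Its log2 fold change, from the authors' deposited table, was 2.19 (p 0.00176 and adjusted p 0.937, SE about 0.38, log2 mean expression 3.91).

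Among the listed members, those with the largest fold changes were those at the lowest control levels. ZIK1, whose mouse counterpart was found through its binding to the RNA-binding protein hnRNP K, stood at 9.10 CPM in knockout cells and 0.923 CPM in controls. In the authors' deposited table for the knockout it had the largest log2 fold change of the 15 listed members, 3.30 (p 0.00877 and adjusted p 1.00, SE about 0.82, log2 mean expression 2.32). ZNF418 stood at 14.1 CPM in knockout cells and 1.73 CPM in controls, and the authors' deposited table gave 3.02 (p 0.00624 and adjusted p 1.00, SE about 0.69, log2 mean expression 2.98). ZNF671, a gene often methylated at its promoter in carcinomas, stood at 11.4 CPM in knockout cells and 1.47 CPM in controls. The authors' deposited table put its log2 fold change at 2.95 (p 0.00479 and adjusted p 1.00, SE about 0.64, log2 mean expression 2.68). These 3 genes were the only listed members below 2 CPM in the controls of this comparison. Since a low control level enters the fold change as its denominator and the listing limits remove small changes of low genes, this order is not independent of the measure.

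The other members of the stretch were listed with smaller changes. ZNF550 stood at 17.2 CPM in knockout cells and 4.25 CPM in controls, and the authors' deposited table put its log2 fold change at 2.02 (p 0.00385 and adjusted p 1.00, SE about 0.42, log2 mean expression 3.43). ZNF419 was at 10.3 CPM in knockout cells and 2.58 CPM in controls, with 2.00 in the authors' deposited table (p 0.00621 and adjusted p 1.00, SE about 0.46, log2 mean expression 2.69). ZNF416 was at 10.7 CPM in knockout cells and 2.85 CPM in controls, with 1.91 in the authors' deposited table (p 0.0157 and adjusted p 1.00, SE about 0.55, log2 mean expression 2.76). These genes thus stood near 4 times their control level. ZNF549 was at 11.4 CPM in knockout cells and 3.18 CPM in controls, with 1.84 in the authors' deposited table (p 0.0175 and adjusted p 1.00, SE about 0.54, log2 mean expression 2.86). ZNF530 was at 14.8 CPM in knockout cells and 5.84 CPM in controls, with 1.34 in the authors' deposited table (p 0.0235 and adjusted p 1.00, SE about 0.43, log2 mean expression 3.37). ZNF134 was at 34.5 CPM in knockout cells and 14.2 CPM in controls, with 1.28 in the authors' deposited table (p 0.0121 and adjusted p 1.00, SE about 0.34, log2 mean expression 4.61). ZNF134 was the second most abundant listed gene of the controls after ZNF551.

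ZNF417, which with its close copy ZNF587 is known to repress endogenous retroviruses, stood at 18.8 CPM in knockout cells and 8.21 CPM in controls. The authors' deposited table put its log2 fold change at 1.20 (p 0.0267 and adjusted p 1.00, SE about 0.40, log2 mean expression 3.76). ZNF154, another gene often methylated in tumours, was listed at 1.55 and ZNF211 at 1.12, the smallest of the 15, in the authors' deposited table. The members of the stretch that were not listed were ZNF773, ZSCAN4, ZNF586, ZNF552, ZNF587B, ZNF814 and ZNF587. ZSCAN4 among them is known from mouse embryos and stem cells, where it acts at telomeres, and carries a SCAN domain. ZNF587B, ZNF814, ZNF587 and ZNF552 share 19.3% to 33.0% of their 31-base stretches with transcripts of genes that do not overlap them, and ZNF417 shares 43.9%, mostly with ZNF587. The sources used here do not say how such reads were counted, so values of this subgroup are uncertain. ZNF419 shares 11.8% of its stretches with ZNF773 next to it. The pairs ZNF549 and ZNF550, ZNF416 and ZIK1, and ZNF551 and ZNF154 overlap on opposite strands, so without strand in the counting their reads could not be told apart. Without every overlapping member, 9 members remained listed in the knockout, all higher.

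**Figure D2:**
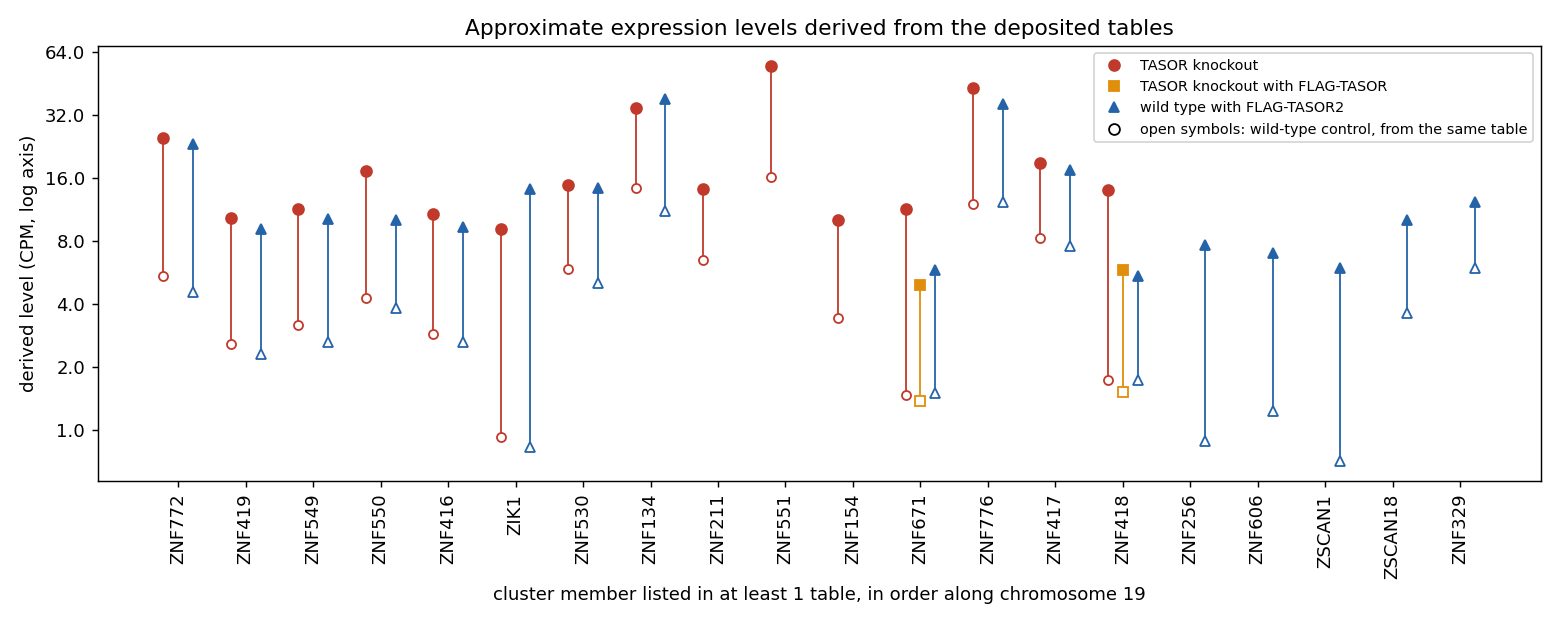
Approximate expression level in CPM (log axis) of the 20 members listed in at least 1 table, derived from the deposited mean and fold change; filled symbols are the altered cells (circles knockout, squares knockout with FLAG-TASOR, triangles FLAG-TASOR2) and open symbols the wild-type controls of the same table, joined by a line. Control levels of a gene derived from different tables lie close together, and the longest lines belong to genes near or below 2 CPM in controls, such as ZIK1.

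The second comparison set knockout cells given FLAG-TASOR against those controls. Here 2 of the 47 members were listed, both as higher, and 0 as lower. The background was 1.87% of genes tested listed and 0.609% listed as higher, with 32.6% of the 261 listed genes higher. The number tested is a lower bound of 13957 in this table. ZNF671 stood at a derived 4.89 CPM in knockout cells with FLAG-TASOR and 1.37 CPM in controls. The authors' deposited table put its log2 fold change at 1.84 (p 0.0320 and adjusted p 0.999, SE about 0.64, log2 mean expression 1.65). ZNF418 stood at 5.78 CPM in knockout cells with FLAG-TASOR and 1.51 CPM in controls, with 1.94 in the authors' deposited table (p 0.0202 and adjusted p 0.999, SE about 0.59, log2 mean expression 1.86). Neither reached an unadjusted p below 0.01, as 63 of the 261 listed genes did (0.451% of genes tested).

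Set side by side, ZNF671 had a log2 fold change of 2.95 without FLAG-TASOR and 1.84 with it in the authors' deposited tables, with approximate 95% intervals of 1.34 to 4.56 and 0.23 to 3.44. ZNF418 had 3.02 without FLAG-TASOR (interval 1.27 to 4.78) and 1.94 with it (0.44 to 3.43) in the authors' deposited tables. The intervals overlap, and the difference was not tested, since the tables share their controls and hold no library values. The other 13 members listed in the knockout were not listed with FLAG-TASOR. Most genes listed in the knockout were likewise not listed there. Of all 268, 58 were in both tables, leaving aside genes whose counts in a group were inferred to be all 0. For 8 of them (ZNF772, ZNF550, ZNF530, ZNF134, ZNF211, ZNF551, ZNF776 and ZNF417) the control level derived from the knockout table would by itself put the mean above the listing limit on expression. For ZNF550 this holds with the control level of 4.25 CPM from that table, but not with the 3.81 CPM derived from the FLAG-TASOR2 table. If tested, and with the knockout table's control levels, these 8 had a log2 fold change of at most 1 or a p of at least 0.05 in cells with FLAG-TASOR.

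The third comparison set FLAG-TASOR2 cells, wild type for TASOR, against those controls. In these cells 17 of the 47 members were listed as higher and 0 as lower. Of 14001 genes tested, 6.31% were listed and 2.56% were listed as higher, and 40.5% of the 884 listed genes were higher. The 17 members made up 4.75% of the genes listed as higher. Their median log2 fold change was 1.83 in the authors' deposited table, the same to 2 decimals as over all genes listed as higher (1.83). An unadjusted p below 0.01 was reached by 7 of the 17, a share near that of all listed genes (387 of 884, or 2.76% of genes tested). The listed members spanned 688 kb, from ZNF772 to ZNF329 (57466663 to 58155110), and 17 of the 28 members in that span were listed. None of the 9 members on the centromere side and none of the last 10 was listed (0 members of either side in this edgeR-type table).

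Values of the genes from ZNF772 to ZNF418 can be set beside those of the knockout, but both tables use the same control libraries and were not compared by a test. ZNF772 stood at 23.2 CPM in FLAG-TASOR2 cells and 4.57 CPM in controls. Its p was the smallest of the 17 listed members, and the authors' deposited table put its log2 fold change at 2.34 (p 0.000625 and adjusted p 0.139, SE about 0.36, log2 mean expression 3.79). ZNF134 stood at 38.0 CPM in FLAG-TASOR2 cells and 11.1 CPM in controls, with 1.78 in the authors' deposited table (p 0.000995 and adjusted p 0.153, SE about 0.30, log2 mean expression 4.62). ZIK1 stood at 14.2 CPM in FLAG-TASOR2 cells and 0.826 CPM in controls, with 4.10 in the authors' deposited table (p 0.00155 and adjusted p 0.176, SE about 0.75, log2 mean expression 2.91). It again had the largest fold change of the listed members. ZNF776 stood at 36.2 CPM in FLAG-TASOR2 cells and 12.3 CPM in controls, with 1.55 in the authors' deposited table (p 0.00409 and adjusted p 0.203, SE about 0.35, log2 mean expression 4.60).

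ZNF419 was at 9.07 CPM in FLAG-TASOR2 cells and 2.31 CPM in controls, with 1.97 in the authors' deposited table (p 0.00624 and adjusted p 0.217, SE about 0.48, log2 mean expression 2.51). ZNF530 was at 14.3 CPM in FLAG-TASOR2 cells and 5.05 CPM in controls, with 1.51 in the authors' deposited table (p 0.00834 and adjusted p 0.235, SE about 0.39, log2 mean expression 3.28). ZNF416 was at 9.31 CPM in FLAG-TASOR2 cells and 2.61 CPM in controls, with 1.83 in the authors' deposited table (p 0.0131 and adjusted p 0.260, SE about 0.53, log2 mean expression 2.58). The ETS core shown above was in the promoters of all 3, as it was in 11 of 16 members listed with FLAG-TASOR2 and in 16 of 26 members listed in no table. ZNF671 was at 5.82 CPM in FLAG-TASOR2 cells and 1.504 CPM in controls, with 1.95 in the authors' deposited table (p 0.0156 and adjusted p 0.281, SE about 0.58, log2 mean expression 1.87). ZNF549 was at 10.2 CPM in FLAG-TASOR2 cells and 2.64 CPM in controls, with 1.95 in the authors' deposited table (p 0.0175 and adjusted p 0.293, SE about 0.60, log2 mean expression 2.68). ZNF417 was at 17.3 CPM in FLAG-TASOR2 cells and 7.51 CPM in controls, with 1.21 in the authors' deposited table (p 0.0189 and adjusted p 0.301, SE about 0.38, log2 mean expression 3.64). ZNF417 shares transcript sequence with ZNF587, as stated above. ZNF550 was at 10.1 CPM in FLAG-TASOR2 cells and 3.81 CPM in controls, with 1.41 in the authors' deposited table (p 0.0267 and adjusted p 0.333, SE about 0.48, log2 mean expression 2.80). ZNF418 was at 5.46 CPM in FLAG-TASOR2 cells and 1.72 CPM in controls, with 1.67 in the authors' deposited table (p 0.0308 and adjusted p 0.352, SE about 0.59, log2 mean expression 1.84). ZNF211, ZNF551 and ZNF154, listed in the knockout, were not listed here. Over all genes, 99 were in both tables, of 268 listed in the knockout and 884 with FLAG-TASOR2. Genes whose counts in a group were inferred to be all 0 are left out of the 99.

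Beyond ZNF418 the FLAG-TASOR2 table listed 5 further members. ZNF256 stood at 7.61 CPM in FLAG-TASOR2 cells and 0.885 CPM in controls, with 3.10 in the authors' deposited table (p 0.00210 and adjusted p 0.185, SE about 0.60, log2 mean expression 2.09). ZNF606 was at 7.02 CPM in FLAG-TASOR2 cells and 1.22 CPM in controls, with 2.52 in the authors' deposited table. ZSCAN1 was at 5.94 CPM in FLAG-TASOR2 cells and 0.706 CPM in controls, with 3.07 in the authors' deposited table. These genes were among the lowest of the listed members in controls. ZSCAN18, at 1.48, and ZNF329, at 1.05, had smaller log2 fold changes in the authors' deposited table. ZSCAN18 overlaps ZNF135, which no table lists, on the opposite strand, with the same limit as the pairs above. Without every overlapping member, 12 members remained listed with FLAG-TASOR2, all higher. ZSCAN1 and ZSCAN18 carry a SCAN domain, through which such proteins pair. These 5 genes were not listed in the knockout, where they have no value, so a difference between the 2 kinds of cells was not tested. Most of the 884 genes listed with FLAG-TASOR2 were likewise not listed in the knockout, as given above.

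Of 83 other annotated genes of chromosome 19 from 57 Mb to its end, 0 were listed in the knockout, 1 with FLAG-TASOR and 4 with FLAG-TASOR2 (counts at an unadjusted p below 0.05 of the edgeR-type tables). Protein-coding non-members with a zinc finger symbol are left out of the 83 and counted with the other zinc finger genes below. These are 0%, 1.20% and 4.82% of the 83, against 1.92%, 1.87% and 6.31% of all genes tested. The bases are unlike, since the 83 are annotated genes of any type and how many were tested is not known. In FLAG-TASOR2 cells the processed pseudogene LETM1P2, inside the span of ZSCAN1 and on its strand, had a log2 fold change in the authors' deposited table of 3.49 (SE about 0.50). The pseudogene VN2R19P was at 3.51 (0.78) and the transcript AC008969.1, which overlaps ZNF606, at 2.27 (0.78) in the authors' deposited table. All 3 lie between ZNF606 and ZSCAN1 or within their spans. The antisense transcript AC016629.2, nearer the chromosome end, stood in the authors' deposited table at 1.40 (0.40). With FLAG-TASOR, the authors' deposited table held MZF1-AS1 as lower, at -2.03 (0.51).

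Other zinc finger genes were listed at lower shares. Chromosome 19 has 216 protein-coding zinc finger genes by symbol that are not members, counted wherever they lie. Of these, 2 were listed as higher and 1 as lower in the knockout. With FLAG-TASOR 2 were higher and 0 lower, and with FLAG-TASOR2 17 were higher and 3 lower. Of 301 such genes on other chromosomes, 2 were higher and 2 lower in the knockout, 0 and 1 with FLAG-TASOR, and 7 and 7 with FLAG-TASOR2. In FLAG-TASOR2 cells 17 of the 20 other listed genes of chromosome 19 were thus higher, where 40.5% of all listed genes were. A lean to higher was therefore not limited to the cluster in these cells. The share listed in the knockout was 31.9% of the cluster, 1.39% of the other zinc finger genes of chromosome 19 and 1.33% of those elsewhere. With FLAG-TASOR2 the shares were 36.2%, 9.26% and 4.65%. Over all genes tested, rather than annotated, they were 1.92% in the knockout and 6.31% with FLAG-TASOR2. Since the cluster was chosen with earlier results of these data known, no test of these differences was made.

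**Figure D3:**
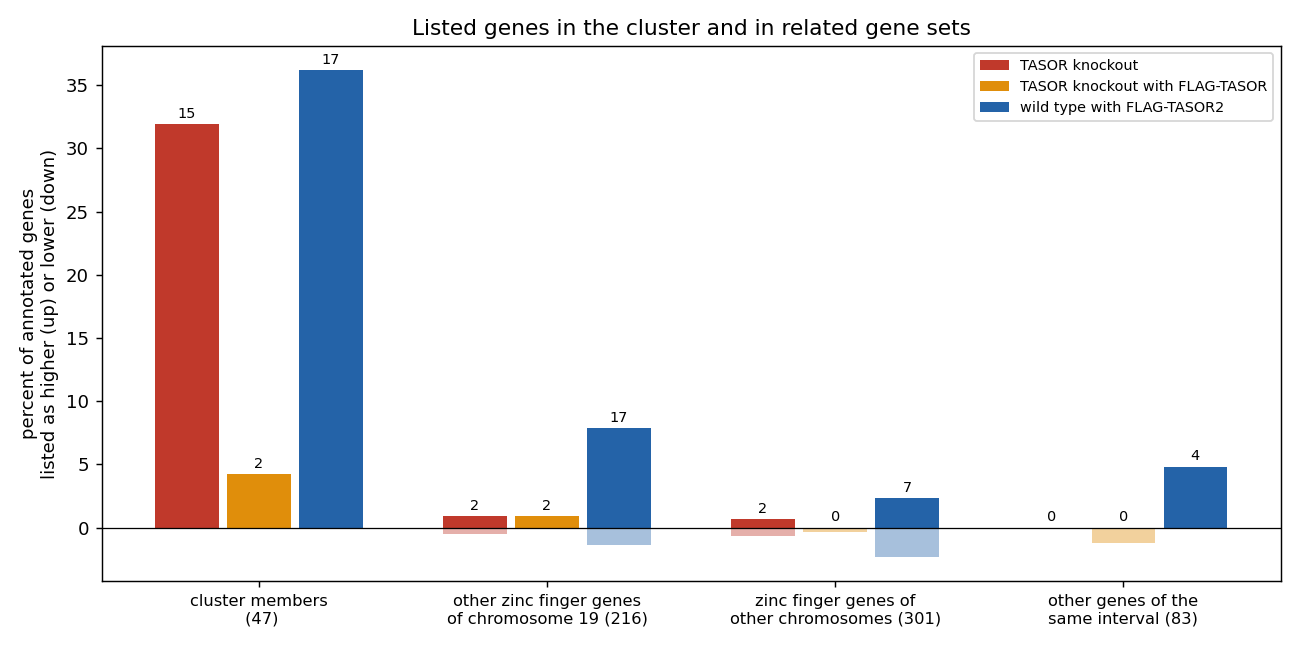
Percent of annotated genes listed as higher (upward bars, with the number of genes) or lower (downward pale bars) in 4 gene sets, coloured by comparison with the same wild-type controls. The cluster members show 15, 2 and 17 genes higher and 0 lower, and the other sets have smaller shares in the knockout and FLAG-TASOR2 tables.

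Listed and unlisted members had similar medians in gene structure, with no test made. The median member listed in at least 1 table spanned 13.17 kb and encoded 553.5 amino acids with 11 fingers, against 14.45 kb and 575 amino acids with 11 fingers for members that were never listed. By strand, 9 of the 20 listed members and 22 of the 27 others lay on the plus strand. The others include all members on the centromere side of ZNF772, each on the plus strand, so strand and position were not separated. Across the 15 members listed in the knockout, the log2 fold change and the log2 mean expression gave Pearson's r of -0.46 and Spearman's rho of -0.44. Across the 17 listed with FLAG-TASOR2 they were -0.34 and -0.44. These points share libraries and listing limits. For the log2 fold change and the number of fingers, r was -0.06 and rho -0.32 in the knockout, and r -0.09 and rho 0.02 with FLAG-TASOR2.

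**Figure D4:**
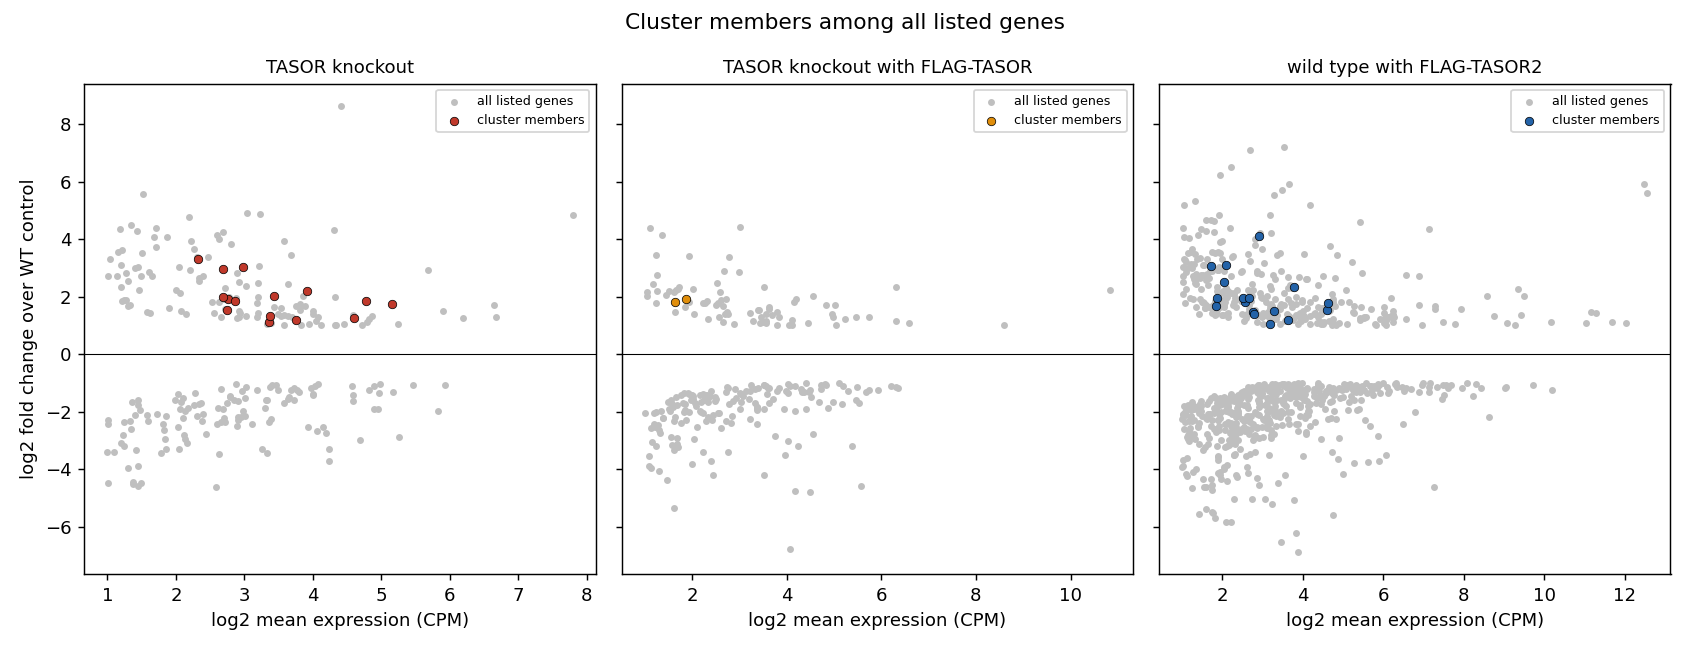
Log2 fold change over wild-type control against log2 mean expression in CPM for all listed genes (grey) and cluster members (coloured), without the genes whose counts in a group were inferred to be all 0; the 3 panels are the 3 comparisons. Members lie above 0 in each panel and within the range of the other genes listed as higher.

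Of a list of 40 genes of the silencing machinery, including TRIM28 in the same distal interval, SETDB1, MORC2 and the HUSH subunits MPHOSPH8 and PPHLN1, only TASOR was listed in the knockout and only TASOR2 with FLAG-TASOR2. None was listed with FLAG-TASOR (0 genes). Over all genes tested, 1.92% were listed in the knockout, 1.87% with FLAG-TASOR and 6.31% with FLAG-TASOR2, so counts this low are no result about the list. ZNF274, a member that binds the 3′ ends of zinc finger genes and recruits SETDB1, was listed in no table. Markers of related blood lineages were listed in some comparisons. With FLAG-TASOR2, 4 of 12 erythroid, 3 of 9 megakaryocyte and 1 of 7 myeloid markers were listed, the first 2 sets as higher and the last as lower, where 2.56% of all genes tested were listed as higher and 6.31% in either direction. In the knockout these counts were 0, 0 and 1 (lower), and with FLAG-TASOR 1, 1 (both higher) and 1 (lower), while 0 of 8 lymphoid markers were listed in any table. The labels call the line a lymphoblast. Among the listed erythroid markers, the authors' deposited tables gave a log2 mean expression of 10.83 for HBE1 with FLAG-TASOR. With FLAG-TASOR2 they gave 10.15 for HBA1, 9.51 for HBA2, 9.43 for HBZ and 4.11 for SLC4A1. These means include the altered cells, in which these genes were listed as higher. The globin genes were thus abundant in these means, while the 8 lymphoid markers were not listed and have no level. The part of these lineage differences in the values of the zinc finger genes was not tested.

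The members listed in no table were ZNF264, ZNF805, ZNF460, ZNF543, ZNF304, ZNF547, ZNF548, ZNF17 and ZNF749 on the centromere side of ZNF772. On the telomere side they were ZNF135, ZNF274, ZNF544, ZNF8, ZSCAN22, ZNF497, ZNF837, ZNF584, ZNF132, ZNF324 and ZNF446. With the 7 inside the stretch named above, these make 27 genes.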

How the data were processed

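Per the labels' protocols, ribosomal RNA was depleted with NEBNext kits and libraries were amplified for 13 PCR cycles, with no molecular identifiers named. Of tools, per the submitters' processing notes, edgeR, DESeq2, Salmon and STAR 2.7.8 are listed with the build hg38 (GRCh38) and no role for each. Per the file headers, the 3 deposited tables hold log2 fold changes, log2 mean CPM, the F score and its p-value and adjusted p, under the column names that an edgeR quasi-likelihood test writes. These values were used as the authors deposited them, with no refit. Depth is unknown from them.

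An approximate SE was had by dividing the size of each log2 fold change by the root of its F, and intervals use the degrees of freedom recovered from F and p (5.36, 5.34 and 6.01). These exceed the degrees of freedom that the 4 libraries of a comparison can give, which are fewer than 4. A member's p thus does not rest on the spread of its own values in those libraries alone. The number of genes tested came from dividing the top gene's adjusted p by its p, or, with FLAG-TASOR, from the highest row number. Levels per group were solved from mean and fold change. The formulas were tested on simulated data. Positions and transcripts came from GENCODE 29, promoters from RefSeq on GRCh38.p14, matched by symbol. Fingers were counted in the longest complete coding sequence. Python 3.11.15, pandas 2.3.3, scipy 1.17.1, biopython 1.88 and matplotlib 3.10.9 were used.

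Every member listed was named. Full values were given for members listed in 2 or more tables and for the 5 with the smallest p in each table. Of the promoter motifs, the 2 of 11 bases were built from the members' own windows. Members, lists and rules were chosen with earlier results of these data known. Alternatives covered the listing limits, shared sequence, overlap, position and the SE formula.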

Additional observations from a re-analysis of the deposited data

How the results depend on the processing

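The tables hold no values per library, so leaving out a replicate could not be run. No paired analysis was possible because the deposited tables carry no values per library, although the labels give the groups the same replicate numbers. The comparison by protein identity was not run; shared 31-base stretches, chosen after seeing the data, took its place. With an unadjusted p below 0.01, the number of members listed was 8 in the knockout, 0 with FLAG-TASOR and 7 with FLAG-TASOR2. With a log2 mean expression above 2 it was 0 with FLAG-TASOR. Without members that overlap another member, chosen after seeing the data, it was 9 in the knockout. At an unadjusted p below 0.05 in place of an adjusted one, 15, 2 and 17 members passed in the knockout, FLAG-TASOR and FLAG-TASOR2 tables, against 0 in each. The other 56 of 64 recomputed counts and medians of listed members stayed within 1.5 times the count, or within the mean SE of the median. Direction could not change under the alternatives that could be run, since 0 members were listed as lower in any table. The counts of lower members, part of the 56, could therefore only stay at 0. A later start of the cluster removed no listed member, nor did leaving out members with all counts of a group at 0. Values that stayed the same for these reasons are no test of the results. An SE taken from the normal quantile of p was 1.29 to 2.04 times that from F over the 34 listed values. Depth and the spread within groups could not be read from the tables, and a call for a single member rests on 2 libraries a group.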
